A study of Homo sapiens with 8 samples.

Results

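The subunits of RNA polymerases I, II and III, with the factors that place polymerases I and III on their genes, were followed in cells labelled Caco-2, an established human colorectal adenocarcinoma line. Members were the gene symbols of the POLR1, POLR2 and POLR3 series, GTF3A, GTF3C1 to GTF3C6, BRF1, BRF2, BDP1, TBP, MAF1, UBTF, RRN3, TAF1A, TAF1B and TAF1C. The rule gave 57 symbols, spread over 70 of the 63816 entries of the deposited table, and 10 of the 57 were pseudogenes. Where a symbol stood on several entries, the entry with the highest mean was taken. The rule used names and mean levels and no comparison between groups.

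RNA-seq was done on 4 samples carrying the empty expression vector pcDNA3.1 and on 4 carrying that vector with full-length SIGLEC12, the gene for the cell surface protein Siglec-XII, which the line was chosen for lacking. Both groups had been stably transfected and selected with G418, so both carry the vector and its resistance gene, and each stems from a transfection of its own. Whether the 4 samples of a group were separate cultures is unclear: the series text counts cultures, the study's methods speak of technical replicate libraries, and neither arrives at 4. All p-values below therefore measure the spread between these samples, which may be technical, and any difference that arose in transfection or selection cannot be told apart from what Siglec-XII does. Values are TPM (the share of transcripts, scaled so that each sample sums to 1000000, which corrects for transcript length) or log2(TPM + 1), and every ± is an SD with n = 4.

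Polymerase I makes the large ribosomal RNA precursor, polymerase II makes mRNAs and most small nuclear RNAs, and polymerase III makes 5S rRNA, tRNAs and other short RNAs. The 3 enzymes share a set of small subunits, polymerases I and III share a further pair, and each has a largest subunit of its own that forms much of the active site. Their output is tied to cell growth, and in colorectal and other tumour cells polymerases I and III are known to be held high by MYC and mTOR signalling and restrained by RB1 and MAF1.

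SIGLEC12 itself was at 0.0399 to 0.122 TPM in the empty vector samples and at 1580 to 1730 TPM in the SIGLEC12 samples, as labelled. Of 18 genes listed for colon epithelium only 6 passed the filter of 1 TPM in at least 4 samples: CDX1, CDX2, EPCAM, CDH1, KRT8 and KRT18. Of these, EPCAM, CDH1, KRT8 and KRT18 are not particular to colon. KRT20, FABP1 and SI were listed at 0 in every sample, and VIL1, CDH17 and HNF4A did not pass, so several genes by which the labelled line is known were at or near 0. Of 18 genes typical of trophoblast 12 passed, among them GATA3 at 402 and 359 TPM and HSD3B1 at 344 and 345 TPM in the empty vector and SIGLEC12 samples. The list was mixed: CGA, ERVW-1, ERVFRD-1, PSG1 and PSG3 passed with group means of only 0.588 to 1.72 TPM. The genes CGB3, CGB5, CGB8, INSL4, CSH1 and LGALS16 did not pass. The summed level of the colon list ran from 7450 to 8440 TPM with the empty vector and from 8960 to 9270 TPM with SIGLEC12, without overlap. Most of that sum was KRT8, at 3900 ± 213 and 4620 ± 111 TPM, and KRT18, at 2950 ± 270 and 3420 ± 142 TPM. It therefore says little of the other colon genes. The trophoblast list summed to 1340 to 1440 TPM and 1310 to 1340 TPM. The 9 fibroblast genes summed to 99.1 to 117 TPM and 112 to 123 TPM, and the 6 immune genes to at most 1.96 TPM in any sample. The 100 most abundant entries took 30.3% to 32.4% of all TPM in the empty vector samples and 28.3% to 30.5% in the SIGLEC12 samples, and 10620 of the 15590 tested entries (68.1%) had a fold change above 0, with a median of 0.07 on the log2 scale. In bulk RNA, a difference in the make-up of the cells and a difference in RNA per cell cannot be told apart, and the part of these shifts in the results below was not tested. The labels state about 25000000 to 40000000 reads of 100 bp for a sample, and the table gives no read counts, so the depth behind each value is unknown.

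Of the 57 symbols, 48 passed the filter, 46 of them not pseudogenes. POLR2J2 was the 1 non-pseudogene that did not, and the pseudogenes POLR2J4 and POLR2KP1 were the only ones of their kind that did. Of the remaining 8 pseudogenes, 6 were listed at 0 in all samples. Of the 48 members, 1 was called higher with SIGLEC12 at a limma adjusted p under 0.05, against 0.34% of all tested entries, and 0 were called lower, against 0.308% (0.648% in either direction). At an unadjusted p of 0.05 or less 6 members were higher (GTF3C4, POLR3A, POLR3B, MAF1, UBTF and POLR2C), where 13.9% of all entries were, and 1 was lower (POLR2J), where 2.61% were. In 5 members (GTF3C4, POLR3A, MAF1, UBTF and RRN3) every SIGLEC12 sample lay above every empty vector sample, which 9.17% of all entries showed, and in 0 members the reverse (1.68%). The fold change was above 0 for 34 of the 48, with a median of 0.06 against 0.07 for all entries, so the members as a list stood close to the rest of the table. That lean depended on the scaling: 23 of the 48 were above 0 with equal upper quartiles or quantile normalization, 22 with the length trend removed and 27 with mitochondrial and the 100 most abundant entries left out.

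**Figure D1:**
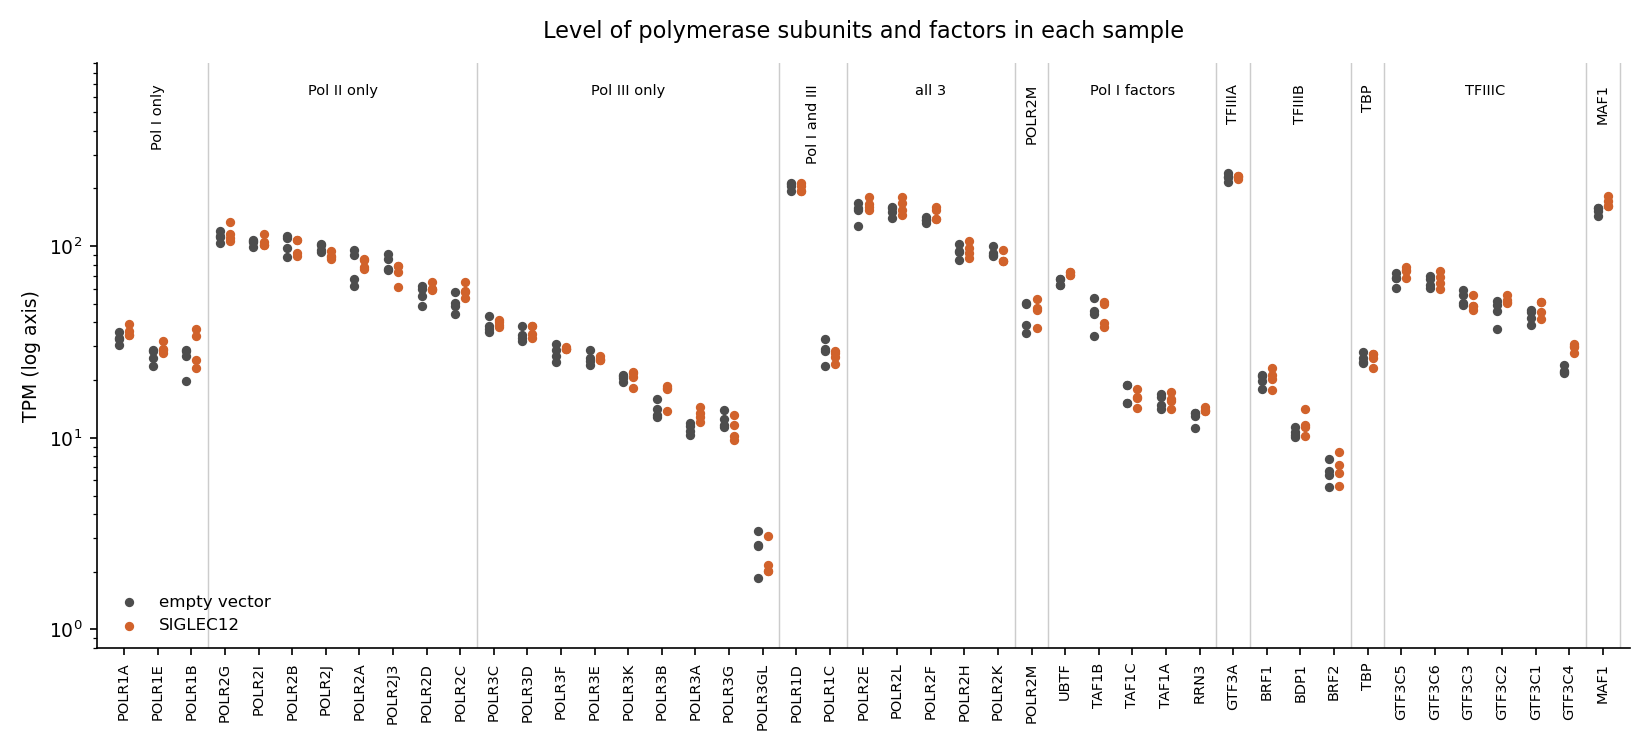
Level of the subunits and factors shown, in TPM on a log axis, 1 point per sample, grey for the 4 empty vector samples and orange for the 4 SIGLEC12 samples, grouped by role. GTF3A at 229 TPM and POLR1D at 205 and 202 TPM stand at the top and POLR3GL at 2.65 and 2.31 TPM at the bottom, and the spread between genes is far larger than that between groups.

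Subunits of polymerase II stood well above those of polymerases I and III in both groups. The 8 tested subunits found only in polymerase II had a median of 89.4 ± 5.80 TPM with the empty vector and 84.9 ± 2.32 TPM with SIGLEC12. The 10 subunits found only in polymerase III had 22.8 ± 0.451 and 23.3 ± 0.644 TPM, and the 3 of polymerase I had 27.0 ± 2.31 and 32.4 ± 2.38 TPM. The lowest polymerase II median of any sample, 81.7 TPM, was thus above the highest of polymerase I, 34.5 TPM, and of polymerase III, 23.9 TPM. Polymerases I and III lay close together, and their order rests on 3 polymerase I genes only. The polymerase I median also did not overlap between the groups, and the distance between its group means was about as large as its distance from polymerase III with the empty vector. The 5 subunits used by all 3 enzymes had the highest median, 134 ± 4.16 and 145 ± 7.01 TPM.

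**Figure D2:**
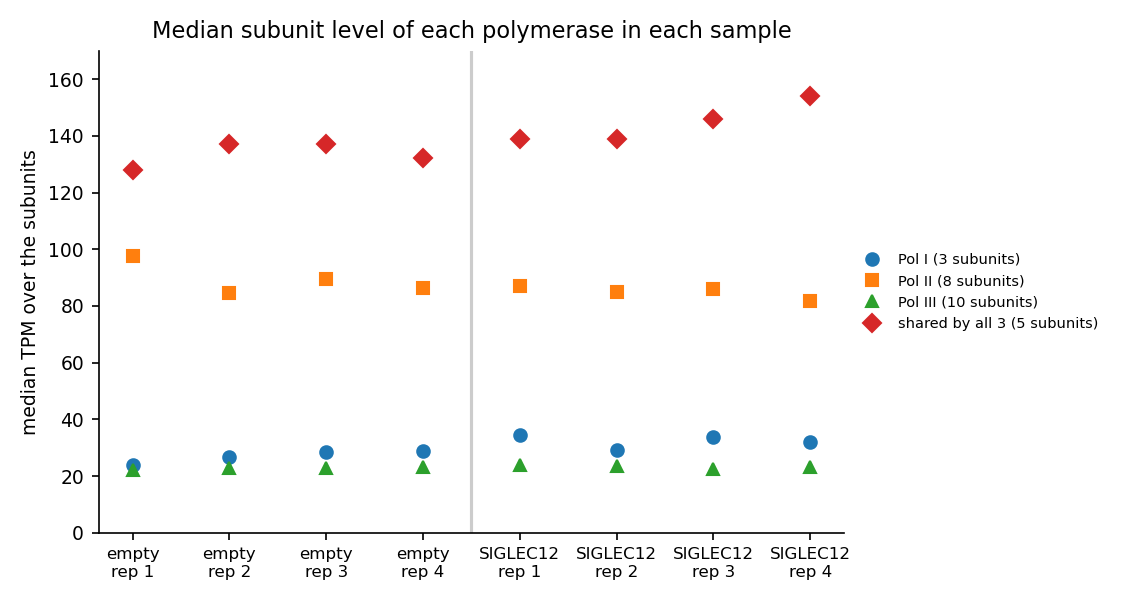
Median TPM over the subunits of each polymerase in each of the 8 samples, on an axis from 0. Polymerase II subunits lie between 81.7 and 97.6 TPM, polymerase III subunits between 22.2 and 23.9 TPM, and polymerase I subunits between 23.8 and 28.8 TPM with the empty vector and between 29.2 and 34.5 TPM with SIGLEC12.

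Differences between groups were small on the log2 scale. The median log2 fold change was 0.14 for the polymerase I subunits, 0.04 for those of polymerase II, 0.06 for those of polymerase III and 0.08 for the shared ones, beside 0.07 for all entries. The spread of such a median between samples of a group was 0.11, 0.07, 0.04 and 0.06 in that order. This is an SD of single samples and not the error of a difference between group means, so no median is judged by it. The sign of the polymerase II and III medians depended on the scaling, since the length correction gave -0.04 and -0.01 and quantile normalization -0.03 and -0.01. No difference between the polymerases was tested, because the subunits of an enzyme are not replicates.

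**Figure D3:**
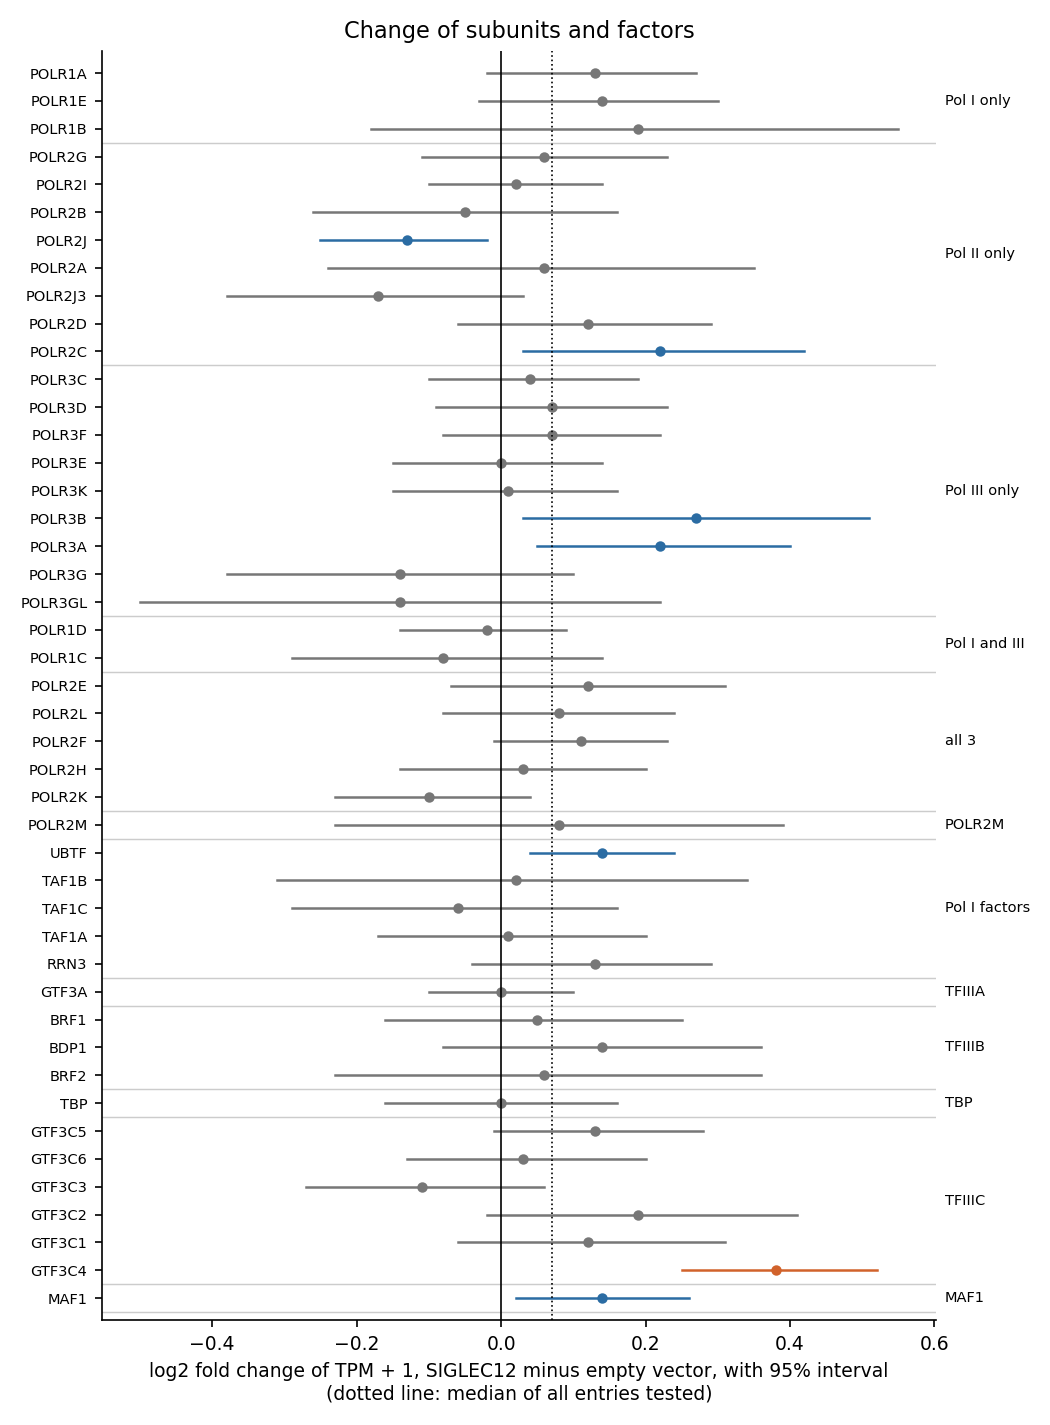
Log2 fold change of TPM + 1 for the subunits and factors shown, SIGLEC12 minus empty vector, with its 95% interval, orange for an adjusted p under 0.05, blue for an unadjusted p of 0.05 or less and grey otherwise. The solid line is 0 and the dotted line is the median of all entries, 0.07. GTF3C4, at 0.38 with an interval from 0.25 to 0.52, is the only orange point.

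TFIIIC, the 6-subunit complex that recognises the promoters lying inside polymerase III genes, held the only called member. GTF3C4 (ENSG00000125484, a protein-coding gene on the plus strand of chromosome 9, 135545422 to 135570340 in GRCh37) encodes a TFIIIC subunit with histone acetyltransferase activity. Its log2 level was 4.51, 4.65, 4.52 and 4.54 with the empty vector and 4.99, 4.84, 4.95 and 4.96 with SIGLEC12. The groups did not overlap, and the gap between them was wider than the range within either. In TPM it rose from 22.5 ± 1.07 to 29.7 ± 1.34, a fold of 1.31. The log2 fold change was 0.38 (SE 0.06, limma adjusted p = 0.0212), and the two-sided exact permutation test of this gene alone gave p = 0.0286, the smallest 4 against 4 samples allow. That value follows from the lack of overlap, which 9.17% of all entries showed in the same direction, so it is no second support. The log2 fold change stayed between 0.31 and 0.42 over the alternatives tried, while the adjusted p ran from 0.014 to 0.147. The call was lost when the variance was shrunk without a trend on level (adjusted p = 0.0506). It was also lost without empty vector replicate 1, 3 or 4 (adjusted p = 0.0726, 0.0935 and 0.0751) and without SIGLEC12 replicate 1, 3 or 4 (adjusted p = 0.0901, 0.0919 and 0.0821). With small structured RNAs left out of the fit it held only narrowly (limma adjusted p = 0.0478).

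The other TFIIIC subunits were not called. GTF3C1, the largest subunit, which contacts the internal promoter, was at 43.2 ± 3.40 and 47.2 ± 4.68 TPM, with a log2 fold change of 0.12. GTF3C2 was at 46.0 ± 6.41 and 52.3 ± 2.52 TPM (0.19, limma adjusted p = 0.354), and GTF3C5 at 67.5 ± 4.90 and 73.9 ± 3.92 TPM (0.13, adjusted p = 0.344). GTF3C3 had a difference below 0, with 53.6 ± 4.59 and 49.7 ± 3.90 TPM (-0.11, adjusted p = 0.518), and GTF3C6 gave 0.03. GTF3C4 was the least abundant of the 6 in both groups, so within this complex the gene that rose was the lowest one.

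The letters that TFIIIC reads are shown for the vault RNAs, which are short targets of the complex. The sequences are those of the reference transcripts on GRCh37, with capitals at script-found matches to AGCNNAG, the core of box A, and GTTCGANNC, box B.
VTRNA1-1: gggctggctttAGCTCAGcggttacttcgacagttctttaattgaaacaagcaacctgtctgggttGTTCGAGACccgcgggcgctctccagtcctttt
VTRNA1-2: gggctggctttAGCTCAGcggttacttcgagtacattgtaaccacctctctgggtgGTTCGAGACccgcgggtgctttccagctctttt
VTRNA1-3: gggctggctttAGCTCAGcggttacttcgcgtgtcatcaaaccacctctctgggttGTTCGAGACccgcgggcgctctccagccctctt
The vault RNAs lie on the plus strand, VTRNA1-1 at chr5:140090860-140090958, VTRNA1-2 at chr5:140098510-140098598 and VTRNA1-3 at chr5:140105743-140105831. The 3 vault RNAs matched both motifs, and none matched on the opposite strand. Among 6453 reference transcripts of 80 to 130 nt, 18.4% held AGCNNAG on at least 1 strand, 0.31% held GTTCGANNC and 0.17% held both. A match is a description of the letters and not a measured site.

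Of the factors that act with TFIIIC, GTF3A, the zinc finger protein TFIIIA that binds the 5S gene, was the most abundant member at 229 ± 10.7 and 229 ± 4.34 TPM. Its log2 fold change was 0.00 with an interval from -0.10 to 0.10. TBP, the TATA-binding protein used by all 3 polymerases, was at 4.76, 4.70, 4.86 and 4.68 on the log2 scale with the empty vector and at 4.82, 4.83, 4.76 and 4.59 with SIGLEC12. The groups overlapped over almost their whole range, and the log2 fold change was 0.00 with an interval from -0.16 to 0.16.

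TFIIIB, which recruits polymerase III, is built from TBP, BDP1 and 1 of 2 related factors, BRF1 at internal promoters and BRF2 at promoters outside the gene such as that of U6. BRF1 was at 4.46, 4.24, 4.47 and 4.37 with the empty vector and at 4.23, 4.41, 4.48 and 4.60 with SIGLEC12. BRF2 was at 2.71, 3.13, 2.88 and 2.94, and at 2.72, 2.91, 3.04 and 3.24. Both overlapped between groups, with log2 fold changes of 0.05 and 0.06, and both changed sign under some alternatives. BRF1 exceeded BRF2 in every sample, with a TPM ratio of 3.10 ± 0.624 and 3.0 ± 0.189. BDP1 stood on 3 entries, of which that on chromosome 5 was at 0.622 ± 0.156 and 0.623 ± 0.275 TPM. The BDP1 entry used, with the highest mean and without a GRCh37 position here, was at 3.55, 3.63, 3.51 and 3.47 and then at 3.92, 3.63, 3.67 and 3.49. SIGLEC12 replicate 1 was its highest sample, and the log2 fold change of 0.14 had an interval from -0.08 to 0.36.

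Among the subunits found only in polymerase III, the largest and the second-largest had the largest positive differences, and both missed the adjusted threshold. POLR3A, the largest subunit (ENSG00000148606), was at 3.51, 3.70, 3.56 and 3.64 with the empty vector and at 3.85, 3.71, 3.79 and 3.96 with SIGLEC12. The groups did not overlap, though only 0.01 separated the highest empty vector sample from the lowest SIGLEC12 sample. The log2 fold change was 0.22 (SE 0.08, limma unadjusted p = 0.0184, adjusted p = 0.216). POLR3B, the second-largest, was at 4.08, 3.92, 3.79 and 3.83 and then at 4.27, 3.88, 4.25 and 4.30. Its SIGLEC12 replicate 2 lay among the empty vector samples and the other SIGLEC12 samples above them. The log2 fold change was 0.27 (SE 0.11, limma unadjusted p = 0.034, adjusted p = 0.264), and it was 0.37 without SIGLEC12 replicate 2.

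The smaller polymerase III subunits varied little. By single entries POLR3C was the most abundant at 38.4 ± 3.19 and 39.5 ± 1.43 TPM, with log2 levels of 5.24, 5.46, 5.29 and 5.20 and then 5.37, 5.28, 5.39 and 5.32. POLR3E stood on 2 entries with identical values, and their sum, 51.9 ± 4.03 and 51.6 ± 1.11 TPM, was above POLR3C. Single entries of POLR3D, POLR3E, POLR3F and POLR3K lay between 18.3 and 38.2 TPM in every sample, with log2 fold changes from 0.00 to 0.07. POLR3G and POLR3GL are paralogs that take the same place in alternative forms of the enzyme, POLR3G being typical of stem and tumour cells and POLR3GL of differentiated ones. POLR3G was at 3.91, 3.63, 3.76 and 3.67 and then at 3.83, 3.49, 3.67 and 3.42. POLR3GL was at 2.09, 1.91, 1.51 and 1.90 and then at 1.66, 1.59, 2.03 and 1.59. Both had a log2 fold change of -0.14 with groups that overlapped (limma adjusted p = 0.545 and 0.711). The TPM ratio of POLR3G to POLR3GL was 4.88 ± 1.28 and 4.96 ± 0.930, from 3.83 to 6.79 over all samples, so the form with POLR3G was the more abundant in mRNA in both groups.

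MAF1, the repressor that binds polymerase III when nutrients or mTOR signalling fall, was at 7.18, 7.31, 7.31 and 7.27 with the empty vector and at 7.34, 7.34, 7.43 and 7.52 with SIGLEC12. The groups did not overlap but came within 0.03 of each other. In TPM the level was 153 ± 6.36 and 169 ± 9.73, with a log2 fold change of 0.14 (SE 0.05, limma unadjusted p = 0.0267, adjusted p = 0.238). It was well above every subunit found only in polymerase III.

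**Figure D4:**
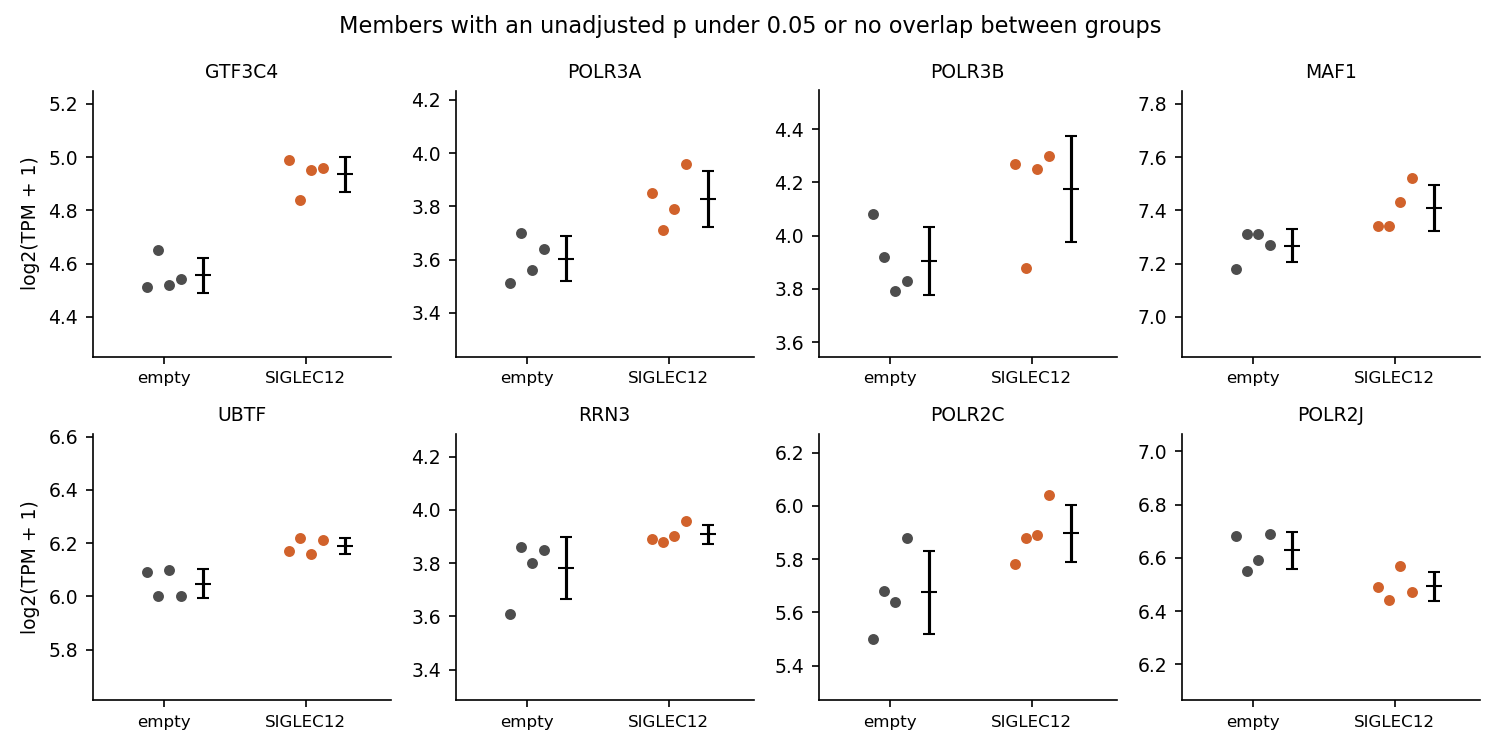
Log2(TPM + 1) in each sample of the 8 members with an unadjusted p of 0.05 or less or with no overlap between groups, grey for the empty vector and orange for SIGLEC12, with the mean and SD of each group in black. Each panel spans 1 log2 unit, so distances can be compared between panels, and GTF3C4 has the widest gap.

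The subunits found only in polymerase I were POLR1A, POLR1B and POLR1E, since the table lists the others under older symbols outside the rule. POLR1A, the largest subunit, was at 5.09, 5.07, 5.20 and 4.98 with the empty vector and at 5.15, 5.22, 5.33 and 5.15 with SIGLEC12. POLR1B, the second-largest, was at 4.38, 4.79, 4.88 and 4.90 and then at 5.24, 4.73, 5.12 and 4.60, and was the most variable of the 3. POLR1E was at 4.63, 4.76, 4.89 and 4.87 and then at 4.85, 4.91, 4.89 and 5.04. All 3 had groups that overlapped, with log2 fold changes of 0.13, 0.19 and 0.14 and limma adjusted p-values of 0.368, 0.604 and 0.378. Under the older symbols, CD3EAP, which pairs with POLR1E in the enzyme, was at 44.7 ± 2.42 and 53.0 ± 1.36 TPM (log2 fold change 0.24, limma unadjusted p = 0.00111, adjusted p = 0.090). TAF1D, a component of the polymerase I selectivity factor SL1 that the rule does not name, was at 491 ± 31.5 and 409 ± 44.7 TPM (-0.27, limma unadjusted p = 0.00728, adjusted p = 0.154). TWISTNB and ZNRD1, also older symbols, gave 0.05 and 0.06, and the polymerase III subunit CRCP, likewise not named by the rule, gave 0.07. ZNRD1 stood on 8 entries, and only the one with the highest mean was used, at 2.93 ± 0.357 and 3.1 ± 0.301 TPM. Of these 5 genes 0 were called.

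Of the factors that start polymerase I, UBTF, the HMG-box protein that coats active ribosomal DNA, was at 6.09, 6.0, 6.10 and 6.0 with the empty vector and at 6.17, 6.22, 6.16 and 6.21 with SIGLEC12. The groups did not overlap, and the level was 65.2 ± 2.47 and 72.0 ± 1.5 TPM. Its log2 fold change was 0.14 (SE 0.04, limma unadjusted p = 0.0106, adjusted p = 0.176). RRN3, known as TIF-IA, which links polymerase I to SL1, stood on 2 entries with identical values, each at 3.61, 3.86, 3.80 and 3.85 and then at 3.89, 3.88, 3.90 and 3.96. It too did not overlap, with empty vector replicate 1 the lowest sample, and gave 0.13 (limma unadjusted p = 0.123, adjusted p = 0.427). The SL1 subunits TAF1A, TAF1B and TAF1C gave 0.01, 0.02 and -0.06, and TAF1B ranged from 33.8 to 53.7 TPM over the samples.

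POLR1C and POLR1D, shared by polymerases I and III, were unlike each other in level. POLR1D was at 205 ± 9.04 and 202 ± 10.3 TPM and POLR1C at 28.4 ± 3.71 and 26.8 ± 1.79 TPM, a ratio of 7.34 ± 1.15 and 7.57 ± 0.432. Their log2 fold changes were -0.02 and -0.08. Of the 5 subunits shared by all 3 enzymes, POLR2E and POLR2L were the highest and did not differ from each other beyond their spread. POLR2E was at 153 ± 17.1 and 165 ± 11.8 TPM and POLR2L at 153 ± 8.73 and 162 ± 14.8 TPM. The log2 levels of POLR2E were 7.01, 7.40, 7.32 and 7.28 and then 7.28, 7.38, 7.33 and 7.51. POLR2K was the lowest of the 5, at 6.50, 6.54, 6.49 and 6.66 and then 6.40, 6.41, 6.59 and 6.40. POLR2E, POLR2F, POLR2H and POLR2L had log2 fold changes of 0.12, 0.11, 0.03 and 0.08 and POLR2K one of -0.10, with groups that overlapped in all 5.

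POLR2A, the largest polymerase II subunit, whose repeated C-terminal tail is phosphorylated during transcription, stood on 2 entries. The entry with the higher mean belongs to an alternate copy without a GRCh37 position here. It was at 6.60, 6.10, 6.51 and 5.98 with the empty vector and at 6.43, 6.42, 6.30 and 6.26 with SIGLEC12, and the empty vector samples spread widely around the SIGLEC12 ones (log2 fold change 0.06, interval from -0.24 to 0.35). The entry on chromosome 17 (ENSG00000181222, 7387685 to 7417933 in GRCh37) was at 32.8 ± 1.98 and 38.6 ± 1.97 TPM, without overlap, and gave 0.23 (limma unadjusted p = 0.00454, adjusted p = 0.135). Summed, the entries were at 112 ± 17.7 and 119 ± 2.88 TPM, a log2 difference of 0.11 (two-sided exact permutation p = 0.429). The 2 copies are the same gene, so how the reads were divided between them bears on each value.

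In TPM, POLR2A exceeded POLR1A by 2.38 ± 0.413 times with the empty vector and 2.25 ± 0.206 times with SIGLEC12. POLR2A exceeded POLR3A by 7.15 ± 1.93 and 6.15 ± 0.739 times, or by 10.1 ± 2.18 and 9.07 ± 0.851 times with both POLR2A entries summed. The order POLR2A above POLR1A above POLR3A held in all 8 samples, and the ratios overlapped between groups.

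POLR2C and POLR2J, which form a pair in the assembly of polymerase II, had differences of opposite sign, neither past the adjusted threshold. POLR2C was at 5.50, 5.68, 5.64 and 5.88 with the empty vector and at 5.78, 5.88, 5.89 and 6.04 with SIGLEC12. The upper empty vector sample overlapped with SIGLEC12, and the log2 fold change was 0.22 (SE 0.09, limma unadjusted p = 0.0267, adjusted p = 0.238). POLR2J was at 6.68, 6.55, 6.59 and 6.69 and then at 6.49, 6.44, 6.57 and 6.47. Here 1 SIGLEC12 sample, replicate 3, lay within the empty vector range, and the log2 fold change was -0.13 (SE 0.05, limma unadjusted p = 0.0247, adjusted p = 0.234). The remaining subunits POLR2B, POLR2D, POLR2G and POLR2I gave -0.05, 0.12, 0.06 and 0.02. By single entries the most abundant of the enzyme's own subunits, POLR2G, was at 6.71, 6.81, 6.83 and 6.91 and then at 6.80, 6.75, 6.87 and 7.08. POLR2M, which joins polymerase II as the Gdown1 protein, was at 43.6 ± 7.80 and 46.0 ± 6.47 TPM (0.08).

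POLR2J has near-identical copies on chromosome 7, and the start of their coding sequences shows how little sets them apart. Capitals mark in POLR2J the 3 bases that the copies lack, and in POLR2J2 the substitutions against POLR2J, over the opening 150 bases from the start codon in the GRCh37 reference transcripts.
POLR2J: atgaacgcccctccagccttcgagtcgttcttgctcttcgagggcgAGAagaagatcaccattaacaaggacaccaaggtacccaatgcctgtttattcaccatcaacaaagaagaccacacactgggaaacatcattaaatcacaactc
POLR2J2: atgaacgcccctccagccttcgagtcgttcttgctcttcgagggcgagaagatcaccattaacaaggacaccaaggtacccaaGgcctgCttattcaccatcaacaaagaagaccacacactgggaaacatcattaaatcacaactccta
POLR2J3: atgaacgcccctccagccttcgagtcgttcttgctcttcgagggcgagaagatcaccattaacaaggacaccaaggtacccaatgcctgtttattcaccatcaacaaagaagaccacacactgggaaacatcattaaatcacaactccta
The transcripts lie on the minus strand, POLR2J at chr7:102113575-102119369, POLR2J2 at chr7:102306493-102312110 and POLR2J3 at chr7:102207413-102213030. POLR2J3 had 0 substitutions in this stretch and POLR2J2 had 2. Of the 31-base words in the coding sequence of POLR2J, 80.1% also occurred in a copy, so most such words cannot name 1 of them. Untranslated parts and whole reads were not compared, so the share of reads that could belong to several copies is unknown. POLR2J held 47.9% ± 3.18 of the summed TPM of the copies with the empty vector and 47.4% ± 2.77 with SIGLEC12. The sum takes in POLR2J, POLR2J2, both entries of POLR2J3 and those of the pseudogene POLR2J4. It was at 226, 199, 200 and 195 TPM with the empty vector and at 197, 188, 196 and 171 TPM with SIGLEC12. The sums overlapped in range (log2 difference -0.12, two-sided exact permutation p = 0.0857).

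The 2 entries of POLR2J3 had differences of opposite sign. The higher POLR2J3 entry was at 6.53, 6.27, 6.43 and 6.25 and then at 6.31, 6.31, 6.21 and 5.96, with a log2 fold change of -0.17 (limma adjusted p = 0.375). The lower POLR2J3 entry (ENSG00000168255, chromosome 7, 102178365 to 102213100 in GRCh37) was at 6.42 ± 0.827 and 9.65 ± 0.587 TPM, without overlap, and gave 0.53 (limma unadjusted p = 0.000437, adjusted p = 0.0603). This entry was not the one the rule chose and is given because its difference was larger than that of any member that is not a pseudogene. POLR2J2 was listed between 0.0499 and 3.39 TPM over the samples.

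**Figure D5:**
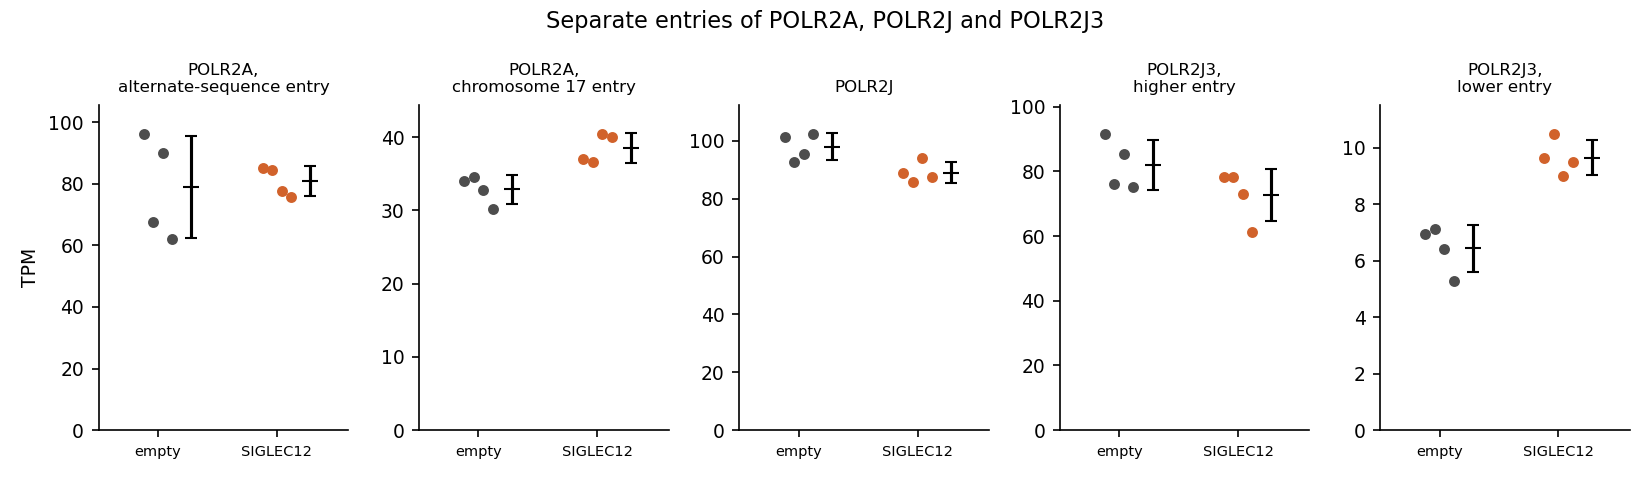
TPM in each sample of the separate entries of POLR2A, POLR2J and POLR2J3, on axes from 0, grey for the empty vector and orange for SIGLEC12, with the mean and SD of each group in black. The chromosome 17 entry of POLR2A and the lower entry of POLR2J3 are higher in all 4 SIGLEC12 samples than in any empty vector sample, while the other 3 panels overlap.

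The median change was higher in classes of longer named transcripts, among members and among all protein-coding entries. The length is that of the 1 transcript the table names for an entry, which can be a short form (584 nt for GTF3C1 and 608 nt for POLR2B), so a class need not be that of the main mRNA. The 25 members with a named transcript under 2000 nt had a median log2 fold change of 0.02, the 9 of 2000 to under 4000 nt had 0.06, and the 12 of 4000 nt or more had 0.12, with 11 of those 12 above 0. All protein-coding entries had 0.05, 0.07 and 0.10 in the same classes. With the length trend removed over the whole table, 22 of the 48 members were above 0 in place of 34. GTF3C4 was still called (0.34, limma adjusted p = 0.0319), but it was corrected as a transcript of 1417 nt. Whether that is the length of its main mRNA was not checked, so the part of length in its change is not settled. POLR1A, named at 12480 nt, went from 0.13 to 0.0. Among other members of 4000 nt or more, POLR3A went from 0.22 to 0.12, POLR3B from 0.27 to 0.18 and UBTF from 0.14 to 0.05. BDP1 went from 0.14 to 0.02 and POLR2A from 0.06 to -0.05. With this correction POLR3A, POLR3B and UBTF no longer passed an unadjusted p of 0.05. The part of length in the changes of the long members was not tested beyond this.

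The genes that work with the polymerases gave small differences, and 0 of the 88 tested genes of 7 lists were called. Of 31 general transcription factors of polymerase II, 16 had a fold change above 0 and 15 below, with a median of 0.00. CCNH, the cyclin of the kinase that phosphorylates the polymerase II tail, was the only one past an unadjusted p of 0.05, at 32.1 ± 1.54 and 29.1 ± 1.40 TPM (-0.14, limma adjusted p = 0.274). The 14 regulators of polymerases I and III held 5 genes past that unadjusted limit, all higher, where 13.9% of all entries were higher and 2.61% lower at that limit. MYC, which activates all 3 polymerases, was among them at 143 ± 6.72 and 162 ± 4.36 TPM (0.18, limma unadjusted p = 0.0031, adjusted p = 0.115). So were MTOR (0.15) and RPTOR (0.20) of the growth-sensing kinase complex, CSNK2A2 (0.13) of casein kinase 2, and the repressor RB1 (0.17), with adjusted p-values from 0.189 to 0.284. Of the 14, 8 had a fold change above 0 and 6 below, with a median of 0.03.

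The remaining lists were as quiet. Of 8 factors of small nuclear RNA promoters SNAPC2 passed the unadjusted limit (0.27, limma adjusted p = 0.244), and of 16 assembly and import factors PDRG1 did (0.18, adjusted p = 0.189). Of 8 tested factors of ribosomal DNA CAVIN1, a polymerase I release factor better known from caveolae, was at 179 ± 22.9 and 223 ± 5.08 TPM (0.32, limma unadjusted p = 0.0028, adjusted p = 0.112). Of 6 genes of mitochondrial transcription 0 passed, with POLRMT at 0.15 and MTERF1 at -0.25.

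What the polymerases make can be read only in part, since most of these RNAs lack a poly(A) tail and the library kit is unclear. The labels name a total RNA kit that removes rRNA, and the methods of the study name an mRNA kit. How far these sums, that of 5S rRNA above all, reflect what is made is therefore unknown. TPM was summed over all entries of a family, pseudogene copies included, and each family was given as log2(sum + 1). Among 10 polymerase III families 7 were lower with SIGLEC12 and 3 higher (median -0.67), and among 9 families made by polymerase II 7 were lower and 1 higher (median -1.06). 5S rRNA was at 8.96, 8.90, 8.84 and 8.58 with the empty vector and at 7.39, 7.37, 7.65 and 6.66 with SIGLEC12. 7SL was at 8.83, 8.81, 8.69 and 8.77 and then at 8.27, 8.02, 8.26 and 8.0. 7SK was at 6.02, 5.78, 6.02 and 5.79 and then at 5.09, 4.96, 4.83 and 5.19. These 3 did not overlap, and neither did U1, U3, U5 and U8 of polymerase II, whose differences were -2.25, -2.2, -1.26 and -2.78. U8 was listed at 0 in 2 SIGLEC12 samples, so the size of its difference depends on the pseudocount (-4.48 with 0.1). U5 was narrowly apart, with a highest SIGLEC12 sample of 4.60 and a lowest empty vector sample of 4.68. In total 7 of 19 families did not overlap, all lower, beside 1.68% of single tested entries that were lower without overlap. That share is of single entries of all kinds and not of sums, so it is no base rate for families. With small structured RNAs left out of the whole table, 26 entries were called in place of 101. Of those calls 73.1% were higher, in place of 52.5%. Whether the lower sums are particular to these families among small RNAs was not tested. Each of these 7 had a two-sided exact permutation p of 0.0286, the smallest that 4 against 4 samples allow, and an adjusted p of 0.0776 over the 19 families. With 7 families at that floor the adjustment cannot give less, so an adjusted p under 0.05 was out of reach for them.

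Within each promoter type the families without overlap were lower, and those with a difference above 0 overlapped between groups. Of the 4 whose promoters TFIIIC reads, 5S, 7SL and the vault RNAs had differences of -1.55, -0.64 and -1.12, the last with groups that overlapped, while BCYRN1 was higher by 0.39. Of the 6 with promoters upstream of the gene, read through SNAPc and BRF2, 7SK, RMRP, RPPH1 and U6 had differences of -0.88, -0.96, -0.70 and -0.07, and U6atac and Y RNAs of 0.55 and 0.11. BCYRN1, U6atac and Y RNAs had two-sided exact permutation p-values of 0.171, 0.229 and 0.429, unadjusted. U6 was at 10.05, 10.18, 10.04 and 10.04 and then at 10.11, 9.82, 10.28 and 9.81, with the SIGLEC12 samples on both sides of the others. GTF3C4 mRNA was higher and the 5S and 7SL sums lower in the same 4 samples. In those samples U1, U3, U5 and U8 of polymerase II were lower too, and no relation between GTF3C4 and any of these sums was tested.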

How the data were processed

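The authors quantified the reads against human genome build hg19, with kallisto 0.45.0 per the submitters' notes, and deposited 1 table of log2(TPM + 1) values for 63816 gene entries in 8 samples. Each column sums to 1000000 TPM, so the depth is unknown and no interval from counts could be given. Values were used as deposited. The comparison of groups used limma 3.58.1 under R 4.3.3 (lmFit, then eBayes with a mean-variance trend). It took in the 15590 entries at or above 1 TPM in 4 or more samples, with Benjamini-Hochberg adjustment over all of them. The count test named in the study's methods could not be run on these values. Fold changes are on the log2(TPM + 1) scale and understate changes of low entries. Single values were compared by two-sided exact permutation tests of group means. The fit was tested on simulated data. The members, gene lists, tests and alternatives were chosen with earlier results of these data known. Per-sample values are given for members past an unadjusted p of 0.05 or less, for the largest subunits and main factors, and for the highest and lowest subunit of each polymerase. From other lists, genes past that limit or with the largest difference each way are named, and further genes in the text were chosen after their values were seen. Of all entries, 86.9% had their gene ID in the GENCODE annotation lifted to GRCh37, the source of positions and transcript sequences. Some single items are not reported here, though counts and medians over the members include them. The alternatives were other scalings, filters, a pseudocount of 0.1, a length correction, small RNAs left out, array weights, no trend, summed entries, each sample left out and a replicate block. Python 3.11.15 and matplotlib 3.10.9 were used.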

Additional observations from a re-analysis of the deposited data

Results flagged for a closer look

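Samples far from the other 3 of their group, by Dixon's gap test, were found in 5 of the 96 member groups examined and in 6 of the 38 groups of family sums. Chance gives about 1 in 20 where values do not tie. The 5 member groups are close to that share and the 6 groups of family sums above it. In the flagged groups of POLR2KP1, U11 and U12 the other samples were all listed at 0. Any value above 0 is then flagged, so the excess among family sums cannot be read against that share. All values are log2(TPM + 1). POLR2D was at 6.05 in SIGLEC12 replicate 4 and at 5.91 to 5.93 in the others. POLR2K was at 6.59 in SIGLEC12 replicate 3 and at 6.40 to 6.41 in the others. The pseudogene POLR2KP1 was at 1.39 in SIGLEC12 replicate 1 and listed at 0 in the others.

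POLR3B was at 3.88 in SIGLEC12 replicate 2 and at 4.25 to 4.30 in the others, which is the gap that kept its groups from separating. POLR3F was at 4.95 in SIGLEC12 replicate 2 and at 4.91 in the others, a gap of little size within a tight group.

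Among the family sums, U6 was at 10.18 in empty vector replicate 2 and at 10.04 to 10.05 in the others. U6atac was at 3.36 in empty vector replicate 1, against 4.55 to 4.74, and at 4.19 in SIGLEC12 replicate 1, against 5.01 to 5.11. The U4 sum was listed at 0 in SIGLEC12 replicate 1 and was 4.70 to 5.11 in the others. U11 was at 3.48 in empty vector replicate 2 and U12 at 1.12 in SIGLEC12 replicate 3, where the other samples of those groups were listed at 0.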

How the results depend on the processing

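The 1 member called at an adjusted p under 0.05, GTF3C4, became 0 with eBayes without the trend (adjusted p = 0.0506) and with the replicate block (adjusted p = 0.147), and 0 to 1 with a sample left out. The replicate numbers did not pair the samples, since samples with the same number deviated together with correlations from -0.0742 to 0.0591 and only 1 of the 4 numbers correlated best with itself. The block gave 69 calls over all entries in place of 101 and 2 members lower at an unadjusted p in place of 1.

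The members higher at an unadjusted p, 6 here, were 2 with equal upper quartiles, with quantile normalization and with the length trend removed, 3 with mitochondrial and the 100 most abundant entries left out, and 2 to 7 with a sample left out. Those lower, 1 here, were 0 without the trend, 3 with equal upper quartiles, 3 with the length trend removed, 2 with the abundant entries left out, 4 with quantile normalization and 0 to 2 with a sample left out. These scalings also took the share of higher calls over all entries from 52.5% to between 26.2% and 33.3%, and the median of all entries from 0.07 to between 0.00 and 0.03.

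The polymerase III median of 0.06 became 0.00 with equal upper quartiles, -0.01 with quantile normalization and with the length trend removed, 0.01 with the abundant entries left out, and 0.04 to 0.11 with a sample left out. The polymerase II median of 0.04 became -0.04 with the length trend removed, -0.03 with equal upper quartiles and with quantile normalization, -0.01 with the abundant entries left out, and -0.01 to 0.05 with a sample left out. That of the shared subunits, 0.08 here, became 0.02 with equal upper quartiles and with quantile normalization, and 0.03 to 0.10 with a sample left out. The polymerase I median ran from 0.07 to 0.17.

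BRF1 changed sign with equal upper quartiles (-0.01), the length trend removed (-0.04), quantile normalization (-0.02) and without SIGLEC12 replicate 4 (-0.01, up to 0.11 without another sample). POLR2A did so with the length trend removed (-0.05) and without empty vector replicate 2 (-0.01) or 4 (-0.05, up to 0.16 without another sample), and BRF2 without SIGLEC12 replicate 4 (-0.03, up to 0.15). The U4 sum, -0.94 here, became 0.28 without SIGLEC12 replicate 1, where U4 was listed at 0, and down to -1.42 without another sample. TBP, 0.00 here, ran from -0.07 to 0.05. Apart from the construction of each setting, the cause was not tested. The unknown depth and the reads shared among copies limit the low and the repeated symbols most.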
